A study of Homo sapiens with 28 samples.

Results

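Genomic imprinting marks 1 parental copy of a gene with DNA methylation, so that many imprinted genes are read from the other copy alone. The marks are laid down in the germ line and copied at each cell division by the maintenance methyltransferase DNMT1, while the zinc finger protein ZFP57 and its partner TRIM28 protect them in the early embryo by binding methylated TGCCGC motifs. In leukaemia such marks can be lost or spread to the second copy, and CDKN1C is a known target of silencing there.

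Probe sets for 7 imprinted genes were followed in acute myeloid leukaemia (AML) cells given a DNMT1 inhibitor: PAX8-AS1, L3MBTL1, NAP1L5, CDKN1C, MEST, SNRPN and GNAS. All probe sets annotated to these symbols were taken, 20 of 27306 with 1 of the symbols alone (GNAS 9, CDKN1C 4, PAX8-AS1, L3MBTL1 and NAP1L5 2 each, MEST 1). SNRPN had 0 of its own. A further 8 probe sets list SNRPN among several genes, 3 of them with SNURF alone and 5 with small nucleolar RNA genes and IPW of the same locus, and they are given apart, because their signal cannot be given to 1 gene.

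The arrays were Affymetrix Human Genome U133 Plus 2.0, and the cells were 7 established AML lines: GDM1, THP1, SHI1, SKM1, MOLM13, SKNO1 and NOMO1. Each line received 1 µM GSK3484862 (GSK862 in the labels), a DNMT1 inhibitor, or 0.1% DMSO as vehicle, for 96 hours. By the series design the duplicates are biological, so 14 groups held 2 arrays each, 28 in all, and each line stands for 1 patient's leukaemia. Values are log2 probe set signals, and a change is GSK3484862 minus DMSO on that scale, given with limma's standard error (±).

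The floor of the values, 2.13, occurred on all 28 arrays, and array medians lay between 8.33 and 8.51. Duplicates correlated at r = 0.991 to 0.997 across probe sets, and the SD of 1 array was 0.183 to 0.301, widest in SKM1. Of 10 myeloid markers 9 were measured, with a median over lines of 11.15 in GSK3484862 cells and 10.73 in DMSO cells. The lowest line mean among them was 2.85 in GSK3484862 cells and 2.26 in DMSO cells. Among markers of other cells 1 of 4 T cell, 2 of 4 B cell, 1 of 4 epithelial and 0 of 4 erythroid genes were measured, the others being not analysed here. The T cell gene CD3D stood at 13.9 in GSK3484862 cells and 14.59 in DMSO cells of GDM1, and at 9.78 or lower in the other 6 lines. The part of these marker levels in the changes below was not tested.

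The promoters of 4 loci are shown: SNURF, MEST and PAX8-AS1, whose probe sets were near the floor in some lines and bright in others, and NAP1L5, the 1 gene of the 7 that fell. Each is the RefSeq window of 300 bases, from 250 before to 50 after a transcript start, on build GRCh38.p14, and for a locus with several starts the window with the most CG pairs is given. CG pairs, the sites that DNMT1 methylates, are in capitals. The SNURF window, shared with a start of SNRPN, is at chr15:24954737-24955036 on the plus strand, that of NAP1L5 at chr4:88697780-88698079 on the minus strand, that of MEST at chr7:130491835-130492134 on the plus strand and that of PAX8-AS1 at chr2:113236019-113236318 on the plus strand.
SNURF: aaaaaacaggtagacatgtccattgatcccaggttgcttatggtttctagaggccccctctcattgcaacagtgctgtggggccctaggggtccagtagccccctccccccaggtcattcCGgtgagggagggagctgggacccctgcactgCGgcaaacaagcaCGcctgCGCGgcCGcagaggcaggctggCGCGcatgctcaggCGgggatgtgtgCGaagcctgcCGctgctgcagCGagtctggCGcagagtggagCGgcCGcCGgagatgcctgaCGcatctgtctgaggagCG
NAP1L5: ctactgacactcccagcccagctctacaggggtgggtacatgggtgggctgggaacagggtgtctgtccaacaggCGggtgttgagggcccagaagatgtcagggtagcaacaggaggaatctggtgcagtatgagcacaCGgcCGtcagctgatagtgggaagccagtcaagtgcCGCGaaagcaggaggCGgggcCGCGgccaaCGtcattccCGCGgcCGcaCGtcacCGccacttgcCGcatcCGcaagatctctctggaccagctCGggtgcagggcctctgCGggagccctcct
MEST: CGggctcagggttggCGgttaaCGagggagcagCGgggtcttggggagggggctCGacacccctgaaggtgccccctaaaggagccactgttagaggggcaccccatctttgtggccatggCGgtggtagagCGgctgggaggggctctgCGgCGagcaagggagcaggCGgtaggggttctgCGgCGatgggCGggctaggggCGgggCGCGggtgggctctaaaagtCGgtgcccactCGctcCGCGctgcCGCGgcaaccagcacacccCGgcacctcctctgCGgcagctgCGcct
PAX8-AS1: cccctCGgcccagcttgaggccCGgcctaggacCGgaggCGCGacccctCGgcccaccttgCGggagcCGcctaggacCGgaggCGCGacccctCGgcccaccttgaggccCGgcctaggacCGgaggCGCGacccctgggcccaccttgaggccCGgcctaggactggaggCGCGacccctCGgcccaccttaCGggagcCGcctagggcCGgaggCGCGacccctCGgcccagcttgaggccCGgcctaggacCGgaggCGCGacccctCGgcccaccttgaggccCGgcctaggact

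They hold 18 CG pairs in SNURF, 18 in NAP1L5, 25 in MEST and 32 in PAX8-AS1, where the median of all 35116 windows, not chosen by CG pairs, was 14. The other PAX8-AS1 window held 15, and the other MEST windows 13 to 22. The letters TGCCGC, searched on both strands, occurred 2 times in SNURF, 2 times in NAP1L5, 3 times in MEST and 0 times in PAX8-AS1. In all, 20 windows, some of them overlapping, belonged to 6 of the 7 genes, and 9 of the 20 held the motif, as did 16.7% of all windows. A match of letters is a description of the window and says nothing of binding or methylation, which were not measured on these arrays.

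**Figure D1:**
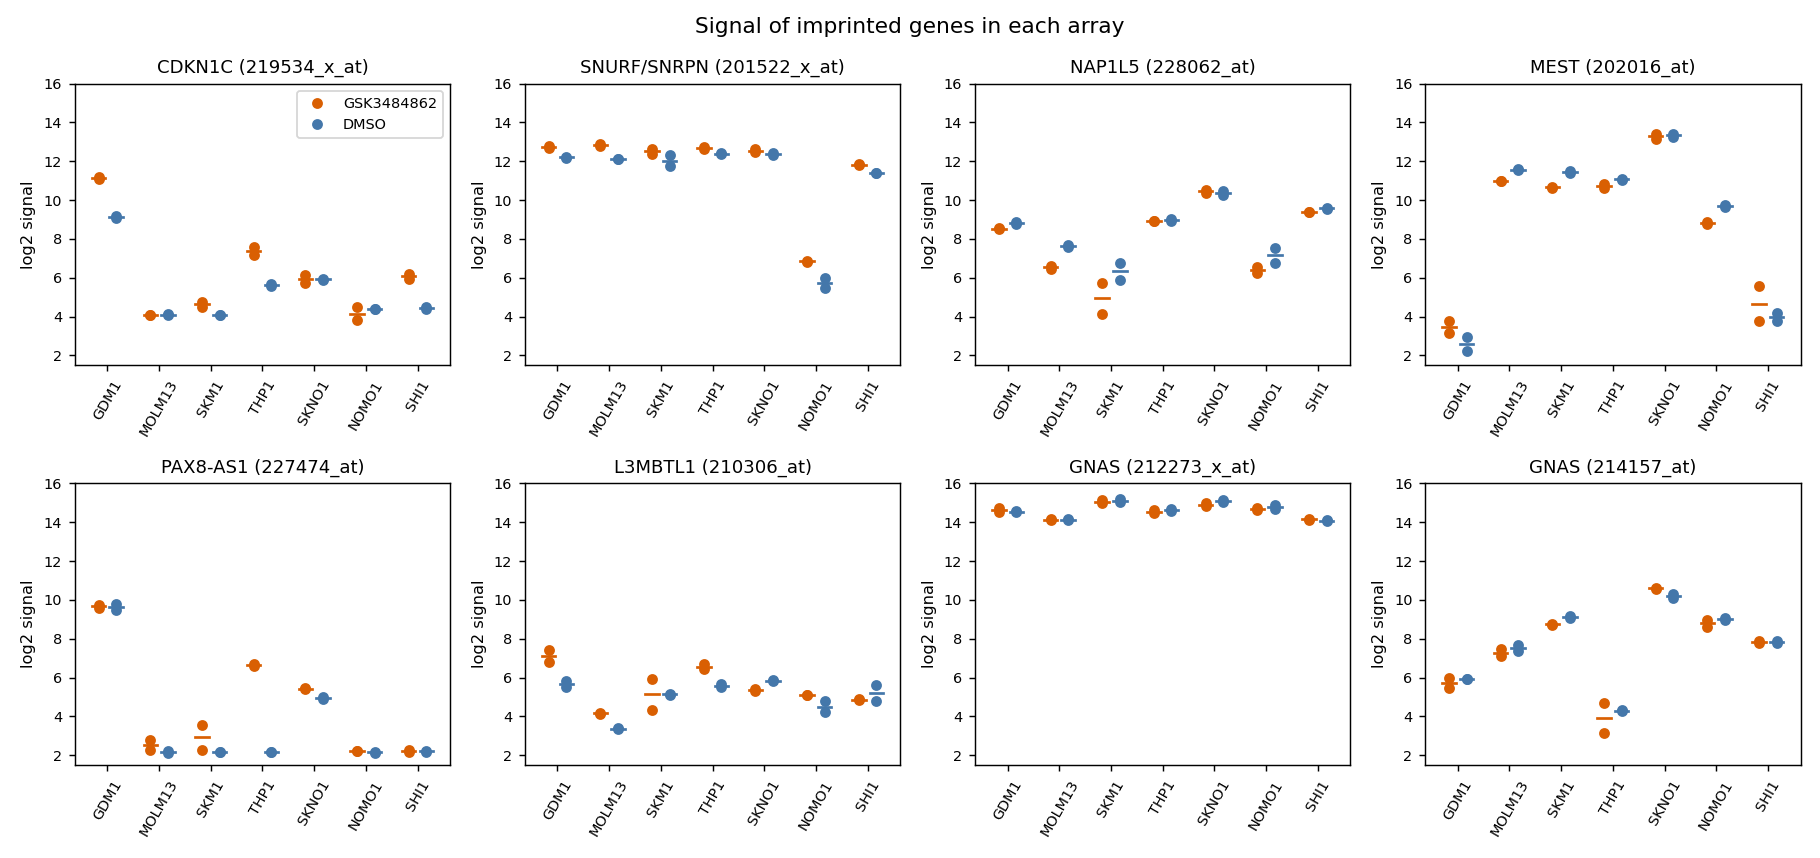
Log2 signal (vertical axis) of 8 probe sets in the 7 lines (horizontal axis), 1 point per array and a bar at the mean of 2 arrays, GSK3484862 in orange to the left of DMSO in blue. PAX8-AS1 in treated THP1 is at 6.65 where DMSO cells are at 2.18, SNURF/SNRPN on 201522_x_at is low in NOMO1 only, and MEST is low in GDM1 and SHI1.

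Averaged over the 7 lines, 7 of the 20 probe sets rose, 2 fell and 11 did not pass limma's test at an adjusted p under 0.05. Of the 8 probe sets shared by SNRPN 7 rose and 0 fell. Over all probe sets 42.6% passed in either direction, 18.4% up and 24.2% down. The median change was -0.03 for the 20, 0.53 for the 8 and -0.02 for all probe sets. The rises were in CDKN1C (4 of 4 probe sets), L3MBTL1 (2 of 2) and PAX8-AS1 (1 of 2), and the falls in NAP1L5 (2 of 2). MEST and the 9 probe sets of GNAS did not pass. When the error was taken from the spread of the 7 lines' changes instead, limma called 0 of the 20 and 4 of the 8, against 3.19% of all probe sets. In that test 4 of the 20 had an unadjusted p under 0.05, 213348_at (0.00997), 219534_x_at (0.0298) and 213182_x_at (0.0327) of CDKN1C and 228062_at of NAP1L5 (0.0204). The share of all probe sets under that unadjusted p was not counted, so these 4 are no result about the imprinted genes.

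The lines with called changes are listed next, and genes were not tested against each other. In GDM1 6 of the 20 rose and 0 fell, where 26.0% of all probe sets passed (10.4% up and 15.5% down), and in THP1 4 rose and 0 fell (background 9.21%, with 3.6% up and 5.61% down). In SHI1, where the fewest probe sets of all lines passed, 3 rose and 0 fell (2.05%, with 1.53% up and 0.524% down), and in SKNO1 1 rose and 0 fell (3.53%, with 1.77% in each direction). In SKM1 2 rose and 2 fell (20.0%, with 9.69% up and 10.3% down), in MOLM13 0 rose and 2 fell (21.2%, with 9.65% up and 11.5% down), and in NOMO1 0 of 20 passed (6.89%, with 2.43% up and 4.46% down). Over all lines this made 16 rises and 4 falls among 140 tests, not far from the 12.7% of all such tests that passed. Of the 16 rises 12 were on the 4 probe sets of CDKN1C, and all 4 falls were on the 2 of NAP1L5. Probe sets of 1 gene are not separate results, so these counts describe few genes. For the 8 shared probe sets 18 rises and 0 falls stood among 56 tests. The test of a difference in change between lines passed for 6 of the 20 and 2 of the 8, against 25.2% of all probe sets.

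**Figure D2:**
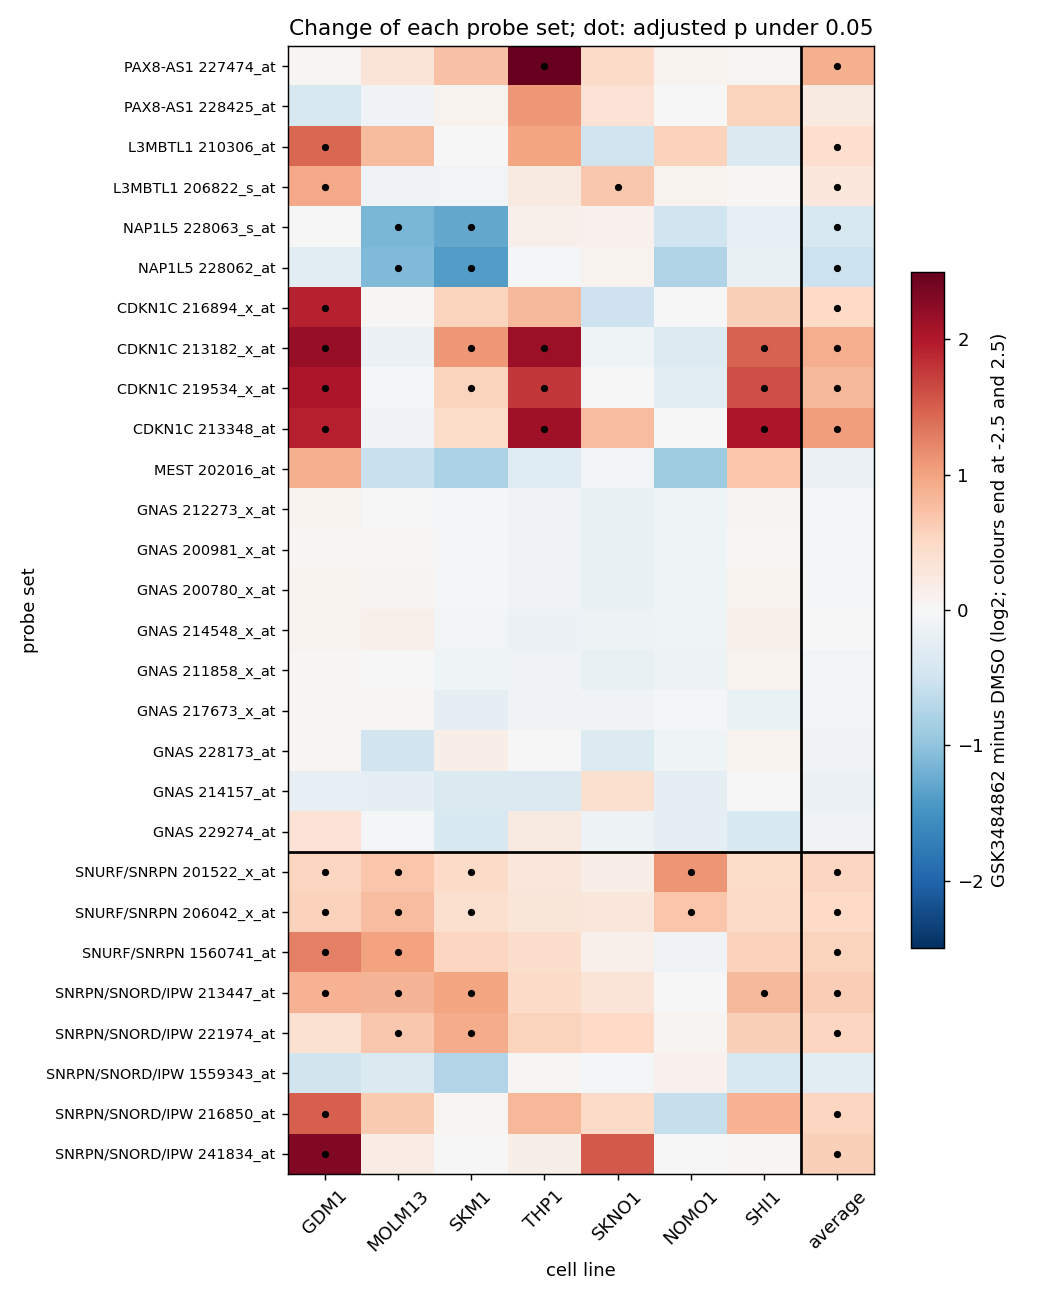
Change in log2 signal, GSK3484862 minus DMSO, of the 28 probe sets (vertical axis, the 8 shared ones below the line) in each line and on average (horizontal axis). Red is higher and blue lower in GSK3484862 cells, colours end at 2.5 either way, and a dot marks an adjusted p under 0.05. CDKN1C is called up in GDM1, SKM1, THP1 and SHI1, NAP1L5 is called down in MOLM13 and SKM1, and GNAS has no dot.

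CDKN1C, the maternally expressed gene of the cyclin-dependent kinase inhibitor p57, rose by 1.48 to 2.18 log2 units in GDM1, THP1 and SHI1, on the probe sets that passed there. Its brightest probe set, 216894_x_at, did not pass in THP1 (0.81 ± 0.43, adjusted p = 0.279) or SHI1 (0.60 ± 0.43, adjusted p = 0.691). On 219534_x_at GDM1 had 11.19 and 11.11 in GSK3484862 cells, against 9.08 and 9.16 in DMSO cells. THP1 had 7.19 and 7.57 in GSK3484862 cells, against 5.67 and 5.57 in DMSO cells. SHI1 had 6.20 and 5.94 in GSK3484862 cells, against 4.50 and 4.41 in DMSO cells. In these 3 lines every treated array lay above both DMSO arrays, by changes of 2.03 ± 0.17 in GDM1 (adjusted p = 3.45e-07), 1.76 ± 0.17 in THP1 (adjusted p = 1.07e-05) and 1.62 ± 0.17 in SHI1 (adjusted p = 4.67e-05).

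The same probe set had 4.76 and 4.50 in GSK3484862 cells of SKM1, against 4.08 and 4.08 in DMSO cells. The fitted rise was 0.55 ± 0.17 (adjusted p = 0.0356). Both DMSO arrays were at a repeated low value, so its size is not ranked against other lines. MOLM13 had 4.08 and 4.08 in GSK3484862 cells, against 4.12 and 4.08 in DMSO cells. SKNO1 had 5.72 and 6.14 in GSK3484862 cells, against 5.88 and 5.95 in DMSO cells. NOMO1 had 3.82 and 4.47 in GSK3484862 cells, against 4.41 and 4.41 in DMSO cells, so the arrays of the treatments overlapped in these 3 lines. The value 4.08 occurred on 5 arrays, 5.79 on 3 arrays of 216894_x_at and 4.70 on 4 of 213182_x_at. Such repeated low values have no order. Groups at such values also enter the spread between duplicates that gives the errors. The test of a difference between lines passed for 219534_x_at (adjusted p = 5.09e-06), as it did for 213182_x_at (adjusted p = 0.00138) and 213348_at (adjusted p = 0.0432), and it did not for 216894_x_at (adjusted p = 0.0835).

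The other CDKN1C probe sets passed in fewer lines or the same ones. In GDM1 the rise was 1.93 ± 0.43 on 216894_x_at, 2.18 ± 0.34 on 213182_x_at and 1.95 ± 0.48 on 213348_at. In THP1 it was 2.13 ± 0.34 on 213182_x_at and 2.11 ± 0.48 on 213348_at, and in SHI1 1.48 ± 0.34 and 2.03 ± 0.48 on the same 2 probe sets. In SKM1 213182_x_at rose by 1.08 ± 0.34. The probe set 216894_x_at passed in GDM1 only, and its treated THP1 arrays lay apart at 6.30 and 8.48, beside 6.20 and 6.95 in DMSO cells. Probe sets ending in x_at can bind other transcripts, and 213348_at is the CDKN1C probe set without that mark. On 213348_at the low value 2.91 occurred on 9 arrays, among them every NOMO1 array and the DMSO arrays of MOLM13 and SKM1. The lack of change in NOMO1 and MOLM13 there is one between values at or near that low.

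Averages over the lines were 0.49 ± 0.16 for 216894_x_at, 0.90 ± 0.13 for 213182_x_at, 0.81 ± 0.07 for 219534_x_at and 1.04 ± 0.18 for 213348_at. The first lost its call without GDM1 (0.25, adjusted p = 0.333), SKM1 (0.48, adjusted p = 0.0543) or SHI1 (0.47, adjusted p = 0.0594). Several calls in single lines did not pass with 1 array left out. In SHI1 213182_x_at (1.48) and 213348_at (2.03) did not without any 1 of that line's 4 arrays. Their values were then 1.29 to 1.67 and 2.00 to 2.07. A group left with 1 array has a larger error. A lost call at a similar value thus does not mean that 1 array made the rise. In THP1 213348_at did not pass without DMSO array 1 (1.19, adjusted p = 0.168) or GSK3484862 array 2 (1.84, adjusted p = 0.101), nor in GDM1 without DMSO array 1 (1.76, adjusted p = 0.0550). In SKM1 213182_x_at did not pass without DMSO array 1 (0.79) or either GSK3484862 array (1.08), nor 219534_x_at without either DMSO array (0.55) or GSK3484862 array 1 (0.42).

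**Figure D3:**
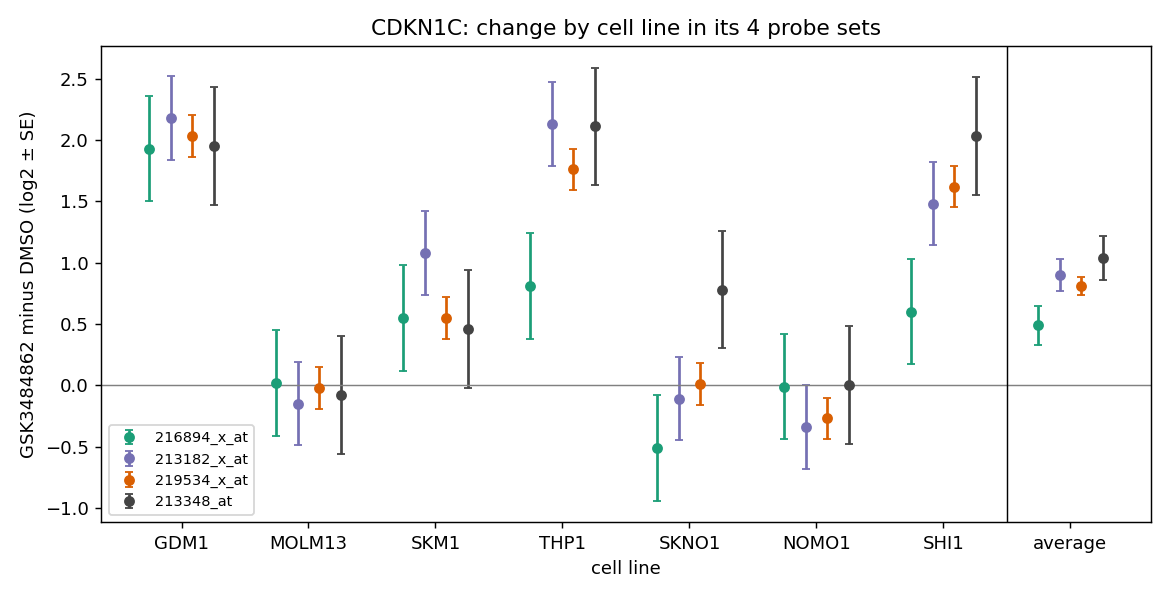
Change of CDKN1C, GSK3484862 minus DMSO in log2 ± SE (vertical axis), for its 4 probe sets by line and on average (horizontal axis), 2 arrays per group. In GDM1 the 4 values lie between 1.93 and 2.18, and in MOLM13 and NOMO1 they lie between -0.34 and 0.02.

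Among DMSO cells CDKN1C was brightest in GDM1, at 9.12 ± 0.06 on 219534_x_at (SD, n = 2). SKNO1 followed at 5.91 ± 0.05 and THP1 at 5.62 ± 0.07, which did not pass a test against each other (difference 0.29 ± 0.17, adjusted p = 0.157). Over all probe sets and pairs of lines 60.9% of such tests passed, so that a difference between lines is the common case. SHI1 at 4.46, NOMO1 at 4.41, MOLM13 at 4.10 and SKM1 at 4.08 were the lowest, with no neighbours in that order passing a test. Thus the line with the highest DMSO level also rose, and of the 4 lowest SHI1 and SKM1 rose while MOLM13 and NOMO1 did not pass.

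Of the genes beside CDKN1C, 3 were measured. KCNQ1OT1, the non-coding RNA that silences CDKN1C on the paternal copy, had 7.96 and 8.10 in GSK3484862 cells of GDM1, against 7.40 and 7.36 in DMSO cells. That rise of 0.65 ± 0.21 (adjusted p = 0.0277) did not pass without any 1 of the 4 arrays (0.58 to 0.72), and its average over lines was 0.15 ± 0.08 (adjusted p = 0.141). PHLDA2, a growth-restraining gene of the placenta, had 6.27 and 5.79 in GSK3484862 cells of GDM1, against 7.37 and 7.30 in DMSO cells, a fall of 1.31 on the log2 scale (adjusted p = 3.01e-04). Thus in GDM1 CDKN1C and PHLDA2, both read from the maternal copy, moved in opposite directions. The potassium channel gene KCNQ1 passed in 0 lines.

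The SNRPN locus was higher in treated cells of most lines. SNRPN encodes a spliceosome protein and SNURF a small protein on the same transcript, both read from the paternal copy. On 201522_x_at GDM1 had 12.68 and 12.81 in GSK3484862 cells, against 12.18 and 12.24 in DMSO cells. MOLM13 had 12.77 and 12.89 in GSK3484862 cells, against 12.14 and 12.14 in DMSO cells. SKM1 had 12.40 and 12.64 in GSK3484862 cells, against 11.75 and 12.33 in DMSO cells. In each of these lines both treated arrays lay above both DMSO arrays, and the rises were 0.53 ± 0.16 in GDM1, 0.69 ± 0.16 in MOLM13 and 0.47 ± 0.16 in SKM1.

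THP1 had 12.61 and 12.75 in GSK3484862 cells, against 12.36 and 12.43 in DMSO cells. SKNO1 had 12.63 and 12.47 in GSK3484862 cells, against 12.43 and 12.33 in DMSO cells. SHI1 had 11.81 and 11.84 in GSK3484862 cells, against 11.38 and 11.38 in DMSO cells. The arrays did not overlap in these 3 lines either, but the differences of 0.29, 0.17 and 0.45 did not pass (adjusted p = 0.314, 0.763 and 0.225). Over the 8 shared probe sets 43 of 56 line comparisons had no overlap, and over the other 20 it was 70 of 140. Among all probe sets the share without overlap was 59.4% in GDM1, 58.6% in MOLM13, 48.8% in SKM1, 55.7% in THP1, 44.5% in SKNO1, 48.0% in NOMO1 and 48.1% in SHI1.

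NOMO1 stood apart, with 6.85 and 6.83 in GSK3484862 cells, against 5.48 and 5.99 in DMSO cells. Its DMSO mean of 5.73 lay 5.65 ± 0.16 below that of SHI1 (adjusted p = 1.28e-14), and the other 6 lines were at 11.38 to 12.39. On 221974_at NOMO1 was at the floor, with 2.23 and 2.16 in GSK3484862 cells, against 2.13 and 2.14 in DMSO cells, while DMSO means of the other lines were 8.53 to 10.24. On 213447_at it had 4.25 and 4.69 in GSK3484862 cells, against 4.56 and 4.37 in DMSO cells, and the other DMSO means were 8.83 to 10.67. On 1560741_at it had 2.77 and 2.48 in GSK3484862 cells, against 2.63 and 2.77 in DMSO cells, where the others were 6.55 to 8.56 in DMSO cells. On these 4 probe sets treated NOMO1 cells too lay below every array of the other lines. On 206042_x_at and 216850_at NOMO1 was likewise lowest, with DMSO means of 5.68 and 2.87, the others being at 11.05 to 12.27 and 4.21 to 5.91. It did not stand apart on 1559343_at, with 5.99 in DMSO cells beside 6.07 in THP1 (adjusted p = 0.842) and a treated mean of 6.10, above treated MOLM13 (5.94) and SKM1 (5.78). On 241834_at NOMO1 and SHI1 had the same DMSO mean of 2.18, near the floor.

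In NOMO1 the rise passed on 201522_x_at (1.11 ± 0.16, adjusted p = 4.73e-04) and 206042_x_at (0.70 ± 0.13, adjusted p = 0.00396), both marked x_at. On the 6 shared probe sets without that mark it passed in 0, with 0.00 ± 0.19 on 213447_at and -0.08 on 1560741_at. Whether the signal of the x_at probe sets in NOMO1 comes from the SNRPN locus was not tested.

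**Figure D4:**
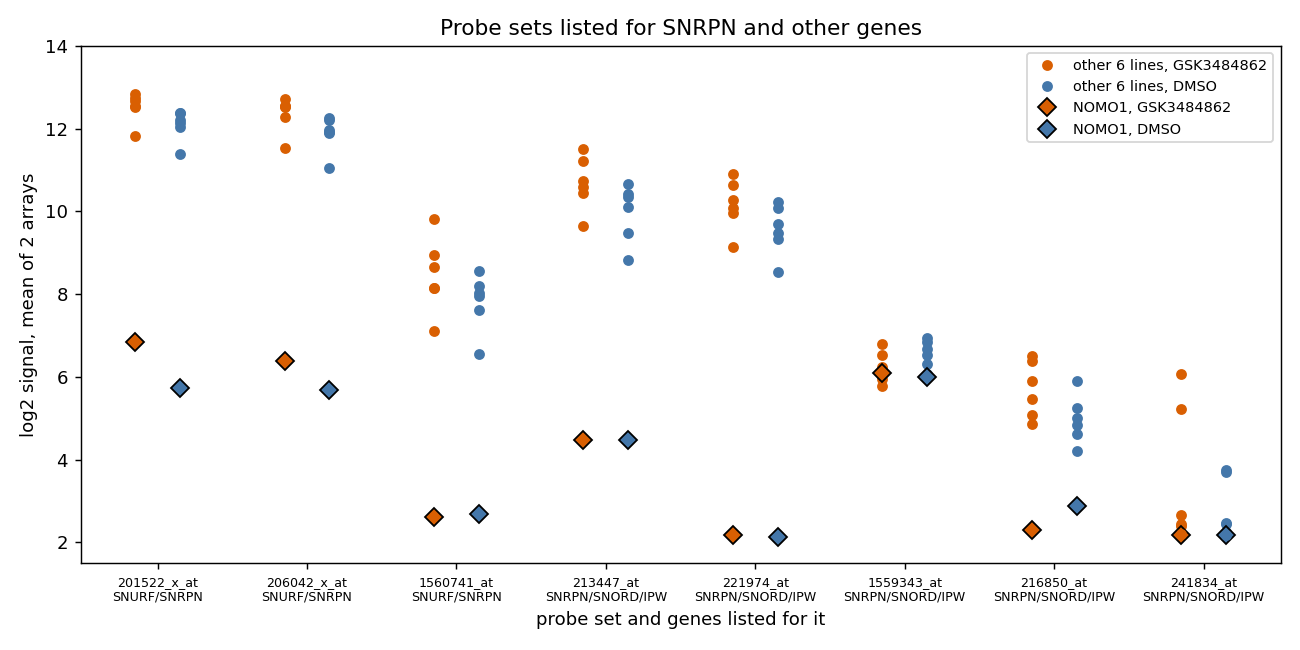
Log2 signal, mean of 2 arrays (vertical axis), of the 8 probe sets that list SNRPN with other genes (horizontal axis), GSK3484862 in orange to the left of DMSO in blue. Diamonds mark NOMO1, at 5.73 in DMSO cells on 201522_x_at where the other lines are at 11.38 to 12.39, and circles mark the other 6 lines.

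The average changes were 0.53 ± 0.06 on 201522_x_at (adjusted p = 3.52e-06), 0.50 ± 0.05 on 206042_x_at (adjusted p = 8.10e-07) and 0.55 ± 0.07 on 1560741_at (adjusted p = 1.16e-05), which list SNURF and SNRPN. Among those that also list small nucleolar RNA genes and IPW they were 0.62 ± 0.07 on 213447_at, 0.53 ± 0.08 on 221974_at, 0.54 ± 0.17 on 216850_at and 0.60 ± 0.17 on 241834_at. These genes lie downstream on the same long paternal transcript, and their loss is linked to Prader-Willi syndrome. The eighth, 1559343_at, had -0.27 ± 0.11 (adjusted p = 0.0666), and it passed without NOMO1 (-0.33, adjusted p = 0.0252). In 3 of the 8 shared probe sets and 1 of the 20 others the mean change was above 0 in all 7 lines, as in 5.11% of all probe sets, values at the floor included.

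By line 6 of the 8 rose in GDM1 and 5 in MOLM13, 4 in SKM1, 2 in NOMO1, 1 in SHI1 and 0 in THP1 and SKNO1. Among all probe sets 10.4% rose in GDM1, 9.65% in MOLM13, 9.69% in SKM1 and 2.43% in NOMO1. In SHI1 it was 1.53%, in THP1 3.6% and in SKNO1 1.77%. The 8 list genes of 1 locus and are not separate results. The largest rise in GDM1 was 2.32 ± 0.46 on 241834_at, with 6.45 and 5.68 in GSK3484862 cells, against 2.82 and 4.68 in DMSO cells. Its average did not pass without GDM1 (0.32, adjusted p = 0.0635), its rise in GDM1 was 1.39 without DMSO array 1, and the average of 216850_at did not pass without SHI1 (0.48, adjusted p = 0.0558). On 1560741_at GDM1 rose by 1.26 ± 0.19 and MOLM13 by 1.00 ± 0.19, and the change differed between lines there (adjusted p = 0.0120) and on 241834_at (adjusted p = 0.0422).

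Several calls at the SNRPN locus in 1 line did not pass with 1 array left out. In SKM1 201522_x_at was at 0.18 without DMSO array 1, 0.59 without GSK3484862 array 1 and 0.35 without GSK3484862 array 2, none of them past the test, and at 0.76 without DMSO array 2. On 206042_x_at SKM1 was at 0.11 without DMSO array 1 and 0.27 without GSK3484862 array 2, not past the test, and at 0.69 without DMSO array 2. In GDM1 201522_x_at did not pass without either DMSO array or GSK3484862 array 2 (0.47 to 0.57), and 216850_at did not without DMSO array 2 (0.65) or GSK3484862 array 2 (1.23) and was at 2.32 without DMSO array 1. Without any 1 of a line's 4 arrays 213447_at did not pass in SHI1 (0.73 to 0.91) nor 221974_at in MOLM13 (0.62 to 0.71), and 221974_at did not in SKM1 without GSK3484862 array 2 (0.56).

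UBE3A, the ubiquitin ligase gene next to this locus that is read from the maternal copy in neurons, fell by 0.13 on average on its brightest probe set (adjusted p = 0.00135). It was called down in GDM1 (-0.23) and MOLM13 (-0.26), lines in which 201522_x_at rose. In SKM1 and NOMO1, where 201522_x_at rose too, UBE3A did not pass (-0.10, adjusted p = 0.397, and -0.13, adjusted p = 0.346). The call in GDM1 did not pass without any 1 of its 4 arrays (-0.21 to -0.25), and that in MOLM13 did not without either DMSO array (-0.28 and -0.25) or GSK3484862 array 1 (-0.17, adjusted p = 0.235).

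NAP1L5, a paternally expressed gene of the nucleosome assembly protein family, was lower in treated MOLM13 and SKM1. On 228062_at MOLM13 had 6.63 and 6.45 in GSK3484862 cells, against 7.71 and 7.56 in DMSO cells. SKM1 had 5.73 and 4.15 in GSK3484862 cells, against 6.75 and 5.90 in DMSO cells. NOMO1 had 6.54 and 6.25 in GSK3484862 cells, against 7.55 and 6.75 in DMSO cells. In these 3 lines both treated arrays lay below both DMSO arrays, and the difference was -1.10 ± 0.36 in MOLM13 (adjusted p = 0.0372), -1.39 ± 0.36 in SKM1 (adjusted p = 0.0108) and -0.76 ± 0.36 in NOMO1 (adjusted p = 0.246).

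In the other lines the differences of 228062_at were -0.28 in GDM1, -0.19 in SHI1, -0.05 in THP1 and 0.09 in SKNO1, and none passed. On 228063_s_at the falls were -1.14 ± 0.35 in MOLM13 (adjusted p = 0.0288) and -1.27 ± 0.35 in SKM1 (adjusted p = 0.0176). SKM1, NOMO1 and MOLM13 were also the 3 lines with the lowest DMSO level, at 6.33, 7.15 and 7.64 on 228062_at, and SKNO1 was the highest at 10.37 ± 0.16 (SD, n = 2). The gap between MOLM13 and the next line, GDM1, passed (1.18 ± 0.36, adjusted p = 0.00843), and no other neighbours in the order did. The test of a difference in change between lines did not pass on either probe set (adjusted p = 0.131 and 0.162).

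Averages were -0.53 ± 0.14 on 228062_at (adjusted p = 0.00481) and -0.41 ± 0.13 on 228063_s_at (adjusted p = 0.0204). The second did not pass without MOLM13 (-0.29, adjusted p = 0.161) and was -0.27 without SKM1. The calls in MOLM13 did not pass without any 1 of its 4 arrays (-1.01 to -1.19 on 228062_at and -1.02 to -1.27 on 228063_s_at). In SKM1 the treated arrays lay apart, and the value was -0.60 on 228062_at (adjusted p = 0.183) and -0.45 on 228063_s_at (adjusted p = 0.296) without GSK3484862 array 2, and -2.18 and -2.08 without GSK3484862 array 1. Without DMSO array 1 the SKM1 values were -0.96 and -0.86, not past the test.

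MEST, a paternally expressed gene of a hydrolase-like protein, differed between lines far more than between treatments. DMSO means were 13.34 in SKNO1, 11.57 in MOLM13, 11.44 in SKM1, 11.07 in THP1 and 9.70 in NOMO1, against 3.97 in SHI1 and 2.57 in GDM1. All neighbours in that order differed except MOLM13, SKM1 and THP1 among themselves, and SHI1 lay 5.72 ± 0.37 below NOMO1 (adjusted p = 7.90e-10). GDM1 had 3.77 and 3.18 in GSK3484862 cells, against 2.21 and 2.94 in DMSO cells. SHI1 had 5.57 and 3.77 in GSK3484862 cells, against 3.77 and 4.17 in DMSO cells. The lines low in MEST thus stayed low with the inhibitor, and the arrays overlapped in SHI1 but not in GDM1.

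In the lines bright in MEST the differences were below 0. NOMO1 had 8.89 and 8.75 in GSK3484862 cells, against 9.65 and 9.74 in DMSO cells, and SKM1 had 10.69 and 10.62 in GSK3484862 cells, against 11.41 and 11.48 in DMSO cells. The differences of -0.88 ± 0.37 in NOMO1, -0.79 in SKM1, -0.56 in MOLM13, -0.33 in THP1 and -0.06 in SKNO1, like 0.90 in GDM1 and 0.70 in SHI1, did not pass. The average was -0.15 ± 0.14 (adjusted p = 0.434), and without SHI1 it passed at -0.29 (adjusted p = 0.0112). COPG2, the neighbour of MEST, passed in 0 lines (average -0.13 ± 0.07).

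PAX8-AS1, a long non-coding RNA antisense to PAX8, was near the floor in DMSO cells of THP1 and far above it with the inhibitor. On 227474_at THP1 had 6.68 and 6.61 in GSK3484862 cells, against 2.18 and 2.18 in DMSO cells, close to the floor. The fitted rise was 4.47 ± 0.26 (adjusted p = 1.67e-08), and with the DMSO arrays so near the floor it is read as a rise of at least 4.47. GDM1 was bright under both, with 9.59 and 9.74 in GSK3484862 cells, against 9.78 and 9.50 in DMSO cells. SKNO1 had 5.48 and 5.39 in GSK3484862 cells, against 4.89 and 5.02 in DMSO cells, without overlap but not past the test. The other 4 lines lay near the floor in DMSO cells (2.15 to 2.21), with SKM1 at 3.57 and 2.27 in GSK3484862 cells.

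The change of 227474_at differed between lines (adjusted p = 1.19e-06). Its average of 0.88 ± 0.10 was 0.28 without THP1 (adjusted p = 0.0624). The dimmer probe set 228425_at had 3.30 and 3.35 in GSK3484862 cells of THP1, against 2.13 and 2.36 in DMSO cells, a difference that did not pass. It too was highest in GDM1 among DMSO cells (4.11 ± 0.15, SD, n = 2).

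L3MBTL1, a paternally expressed gene whose protein compacts chromatin and restrains red blood cell maturation, rose in GDM1. On 210306_at GDM1 had 7.41 and 6.79 in GSK3484862 cells, against 5.81 and 5.50 in DMSO cells, a rise of 1.44 ± 0.36 (adjusted p = 0.00615). THP1 had 6.43 and 6.68 in GSK3484862 cells, against 5.49 and 5.65 in DMSO cells, and MOLM13 had 4.12 and 4.18 in GSK3484862 cells, against 3.33 and 3.38 in DMSO cells. NOMO1 had 5.08 and 5.08 in GSK3484862 cells, against 4.80 and 4.20 in DMSO cells, while SKNO1 had 5.30 and 5.41 in GSK3484862 cells, against 5.88 and 5.81 in DMSO cells. The arrays did not overlap in these 5 lines, with treated cells higher in 4 of them and lower in SKNO1, but 0.99 in THP1, 0.79 in MOLM13, 0.58 in NOMO1 and -0.49 in SKNO1 did not pass. SKM1 held arrays at 5.91 and 4.35 in GSK3484862 cells around 5.17 and 5.10 in DMSO cells, and SHI1 was at -0.36, not past the test. The change differed between lines (adjusted p = 0.0435).

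The average of 210306_at, 0.42 ± 0.13 (adjusted p = 0.0187), did not pass without GDM1 (0.25), MOLM13 (0.36) or THP1 (0.33). In GDM1 the rise did not pass without DMSO array 2 (1.29) or GSK3484862 array 1 (1.13). The second probe set, 206822_s_at, had 16 of 28 arrays within 0.1 of its lowest value. On it GDM1 rose by 0.95 ± 0.17, with 2.77 and 3.59 in GSK3484862 cells, against 2.25 and 2.22 in DMSO cells. SKNO1 rose by 0.67 ± 0.17, with 2.81 and 2.98 in GSK3484862 cells, against 2.23 and 2.22 in DMSO cells. The brighter 210306_at lay the other way in SKNO1 (-0.49, not past the test). For 206822_s_at the average of 0.26 ± 0.06 was 0.15 without GDM1, and its rise in GDM1 was 0.53 without GSK3484862 array 2. In SKNO1 it did not pass without any 1 of the 4 arrays (0.59 to 0.76). Its change differed between lines too (adjusted p = 0.0150). The splicing factor gene SRSF6, next to L3MBTL1, passed in 0 lines.

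GNAS, which encodes the stimulatory G protein alpha subunit and holds transcripts of either parental copy, did not pass on any of its 9 probe sets, on average or in any line. Averages lay between -0.15 and -0.01, with a smallest adjusted p of 0.0947, and the smallest in a single line was 0.111. The 5 brightest probe sets spanned 13.57 to 15.18 over all arrays. On 212273_x_at the DMSO mean was 15.1 in SKM1 and 14.08 in SHI1, and 217673_x_at, 228173_at and 229274_at were dimmer.

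The GNAS probe set 214157_at varied most between lines. Its DMSO mean was 10.2 in SKNO1, 9.11 in SKM1, 9.02 in NOMO1, 7.82 in SHI1, 7.52 in MOLM13, 5.93 in GDM1 and 4.29 in THP1. SKM1 and NOMO1, and SHI1 and MOLM13, did not differ from each other, while the other neighbours in this order did. SKNO1 had 10.62 and 10.58 in GSK3484862 cells, against 10.30 and 10.11 in DMSO cells, without overlap and not past the test. Which GNAS transcript each probe set reads is not given in the sources used here.

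DMSO levels differed between the lines for 19 of the 20 probe sets and 8 of the 8 shared ones by limma's F-test, as they did for 94.9% of all probe sets. The exception was L3MBTL1 206822_s_at, near the floor in every line.

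Of 57 other imprinted genes named 21 were measured, of which on average over the lines 1 rose, 2 fell and 18 did not pass. Their median change was -0.06, where 18.4% of all probe sets rose and 24.2% fell. Of the 18 some were called in single lines, where 12.7% of all such tests passed. PLAGL1 and KCNQ1OT1 were called up in 1 line, PHLDA2 and NLRP2 down in 1, and ATP10A in 1 each way. NLRP2 was at -1.74 in GDM1, and at -0.68 without DMSO array 1. DLK1, a paternally expressed Notch ligand, rose by 0.39 ± 0.15 (adjusted p = 0.0457), with 4.75 and 2.54 in GSK3484862 cells of SKM1, against 2.14 and 2.13 in DMSO cells. Its average was 0.20 without SKM1 and 0.23 without that line's GSK3484862 array 1, and it did not pass without GDM1 (0.32), MOLM13 (0.45), SHI1 (0.38) or THP1 (0.45), nor without any of 26 of the 28 arrays left out singly (0.38 to 0.39). WT1, a transcription factor gene often high in AML, fell by 0.26 (adjusted p = 4.94e-04), and UBE3A is given above. Of 15 named neighbours of the 7 genes 6 were measured, of which on average 0 rose and 1, UBE3A, fell, beside the same 18.4% and 24.2%. All of them but SRSF6 are also among the 21 genes above. Measured here means having a probe set that lists the gene alone. SNURF and IPW, named in both lists and given above on shared probe sets, are therefore not in these counts.

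Of 11 genes that keep imprints or DNA methylation 10 were measured, and on average 0 rose and 6 fell. Their median was -0.09, again beside 18.4% up and 24.2% down of all probe sets. Among those not called on average, DNMT3A was called up in 2 lines and down in 3. DNMT3B was called up in 1 and down in 1, and ZNF445 down in 1. Several of these calls did not pass with 1 array left out. DNMT1, the target of the inhibitor, had -0.09 ± 0.03, its partner UHRF1 -0.10 ± 0.03, ZFP57 -0.11 ± 0.04, TRIM28 -0.09 ± 0.03, the chromatin remodeller HELLS -0.25 ± 0.09 and the insulator protein CTCF -0.08 ± 0.02. Without GDM1 DNMT1 (-0.03), UHRF1 (0.03), TRIM28 (-0.07), HELLS (-0.05) and CTCF (-0.06) did not pass. ZFP57 did not pass without NOMO1 (-0.06) or SKNO1 (-0.06), nor without any of 18 of the 28 arrays left out singly (adjusted p = 0.0508 to 0.0714), and HELLS did not without MOLM13 (-0.24).

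For each gene's brightest probe set the genes with the most similar pattern over the 14 group means were sought by Pearson's r. The closest were MAP3K7CL (r = 0.970) and PLSCR4 (r = 0.968) for CDKN1C, CAAP1 (r = 0.982) and LIX1L (r = 0.981) for the SNRPN locus, and CEP290 (r = 0.953) and PABIR1 (r = 0.932) for NAP1L5. For MEST they were SLC16A7 (r = 0.962) and C2orf74-DT (r = 0.955), for PAX8-AS1 SCARF1 (r = 0.951) and ZFHX3 (r = 0.941). L3MBTL1 gave ANKRD13D (r = 0.883) and MAGED2 (r = 0.876), and GNAS gave PCYT1A (r = 0.930) and CCDC85C (r = 0.930). The group means share arrays, and with 7 lines 1 line that stands apart, such as NOMO1 for the SNRPN locus, can set such a value, so these are descriptions only.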

How the data were processed

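RNA from 7 AML cell lines, given 1 µM GSK3484862 or 0.1% DMSO for 96 hours, was measured on 28 arrays. The table that the authors deposited holds log2 values of 27306 probe sets. How they were background-corrected, normalized, summarised or filtered is not stated in the labels used here. The submitters' processing notes name limma, with no role or version. The values were used as deposited, and each array had 288 to 691 probe sets (1.05% to 2.53%) at the lowest value, which cannot be ranked. Line, treatment and replicate came from the labels. No scan or hybridisation batches were used here, so none could be tested, and the number of arrays limits the precision.

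Gene names came from the platform annotation, which may be out of date. It gives 1 symbol to 22580 probe sets, several to 1098 and none to 3628, and 22567 of the first matched the RefSeq gene table with 0 symbols changed. Promoter windows came from RefSeq on GRCh38.p14.

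With lmFit and eBayes of limma 3.58.1 under R 4.3.3, a model was fitted to all 27306 probe sets with 14 group means, 14 residual and 2.37 prior degrees of freedom. P-values were two-sided, adjusted by Benjamini-Hochberg over all probe sets within each contrast, and called under 0.05. Their error is the spread between duplicates. F-tests compared changes and DMSO levels between lines. Where a list has several probe sets per gene, the one with the highest mean over all arrays was used. Named were all members, list genes called on average, measured neighbours of the members, and the 2 genes with the highest r to each member among genes whose group means had an SD of at least 0.3. The members and lists were chosen with earlier results of these data known. The fit was tested on simulated data.

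Alternatives were quantile normalization, median centring, a filter on dim probe sets, 1 probe set per gene, a trend in eBayes, the replicate number as a block, lines as units, each line fitted on its own, each line or array left out, and an adjusted p under 0.01.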

Additional observations from a re-analysis of the deposited data

Results flagged for a closer look

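The change differed between the 7 lines, by limma's F-test over all probe sets, for 8 of the 28 probe sets. Of all probe sets 25.2% passed the same test, so such a difference is not particular to these genes. For PAX8-AS1 227474_at the adjusted p was 1.19e-06, and THP1 held the large rise. For CDKN1C it was 5.09e-06 on 219534_x_at, 0.00138 on 213182_x_at and 0.0432 on 213348_at, with rises called in GDM1, THP1 and SHI1 on each and in SKM1 on the first 2. For L3MBTL1 it was 0.0435 on 210306_at and 0.0150 on 206822_s_at. Rises were called in GDM1 on both and in SKNO1 on the second, where the first was at -0.49. For the probe set 1560741_at of SNURF and SNRPN the adjusted p was 0.0120, with rises called in GDM1 and MOLM13. For 241834_at, which lists SNRPN with small nucleolar RNA genes, it was 0.0422, with a rise called in GDM1.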

How the results depend on the processing

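No called change of the 28 probe sets reversed its direction under any alternative. Among the list genes UHRF1, called at -0.10 on average, was at 0.03 without GDM1 and did not pass. Of 1203 values of the 28 average changes under the alternatives, 1163 kept their direction and side of the threshold, 26 no longer passed and 14 newly passed. Of 456 values of the 38 called changes in single lines 351 kept theirs and 105 no longer passed. Of the 20 probe sets 9 were called on average, 4 of 6 with the brightest probe set per gene and 0 with lines as units, and of the 8 shared ones 7 were called, 4 with lines as units. In single lines 20 of 140 tests were called, 10 at an adjusted p under 0.01, 6 of 42 with the brightest probe set and 9 with each line fitted on its own, where 18 of 56 shared tests became 5. Differences in change between lines were called for 6 of 20, for 3 at an adjusted p under 0.01 and for 3 of 6 with the brightest probe set. For the shared ones they were called for 2 of 8, for 0 at an adjusted p under 0.01, for 4 with a trend or without SKM1, and for 1 without GDM1, MOLM13, THP1, NOMO1 or SHI1. The DMSO level differed for 19 of 20 and for 6 of 6 with the brightest probe set, and for 8 of 8 shared ones and 5 of 5 after the filter on dim probe sets. The cause of these shifts was not tested, apart from the fewer probe sets or samples in some.

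Leaving out 1 array gave 9 to 11 and 7 to 8 (shared) calls on average, 16 to 23 and 15 to 20 in single lines, 4 to 8 and 1 to 4 for the difference between lines, and 19 to 19 and 7 to 8 for the DMSO level. An arm left with 1 array is assumed to vary like the other groups. Same-numbered arrays of a line deviated together at r = -0.117 to 0.314, above 0.1 in 3 of 7 lines. Between different lines r was -0.173 to 0.231 (median 0.0166). SKM1 (0.307), SKNO1 (0.314) and NOMO1 (0.287) lay above that range, so whether the numbers pair arrays is not settled. The main fit did not pair them. With the replicate number as a block over all lines there were 9 and 7 calls on average, 22 and 18 in single lines, 6 and 3 for the difference between lines and 19 and 8 for the DMSO level. With the block within line there were 9 and 8, 22 and 19, and 9 and 3. An average of GNAS 214548_x_at, uncalled, changed sign in 9 settings. Values near the floor, as for L3MBTL1 206822_s_at or SNRPN locus probe sets in NOMO1, limit what could be seen there.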
